A study of Mus musculus with 16 samples.

Results

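Glycolysis turns glucose into pyruvate and lactate, and the response to low oxygen switches on many of the same genes. The 34 genes described here are 21 glucose transporters and enzymes of glucose, pyruvate and lactate handling, and 13 genes of oxygen sensing and of the hypoxia response. They were chosen by symbol from a list that had been drawn up with earlier results of these data in view, and all 34 were found among the 30286 gene symbols of the deposited table. RNA came from facial prominences, the buds that grow and fuse into the face, taken at embryonic day 12 from mice of the C57BL/6 strain. The 4 groups were Esrp1-/- (KO) ectoderm, wild-type (WT) ectoderm, KO mesenchyme and WT mesenchyme, the layers having been parted surgically. The product of Esrp1 controls splicing in epithelia. No Cre or transgene is named in the labels, nor the deleted stretch of Esrp1. Each group had 4 libraries, each from a pool of 6 to 7 embryos. The table holds 1 value per group in TPM (a level scaled to transcript length, so that genes can be compared), so no difference below has a replicate check, an error or a p-value.

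As background, cells take up glucose through transporters of the Slc2a family, hexokinase traps it as glucose 6-phosphate, and phosphofructokinase commits it to breakdown. Hypoxia-inducible factors (HIF) are made of an alpha subunit, such as Hif1a or Epas1, and an Arnt partner. With enough oxygen, prolyl hydroxylases of the Egln family mark HIF alpha proteins for destruction through Vhl, so the amount of HIF protein is not read from the level of its RNA. When oxygen falls, HIF raises glucose transporters, glycolytic enzymes, the pyruvate dehydrogenase kinase Pdk1 and several of its own regulators. Embryos develop at low oxygen, and fast-growing embryonic tissue is known for high glycolysis.

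Markers of each layer were far higher in that layer, and mesenchyme markers were higher in KO ectoderm than in WT ectoderm. The origin of the mesenchyme marker RNA in ectoderm was not tested. Esrp1 itself was at 62.9 TPM in KO ectoderm, against 170 TPM in WT ectoderm. The 12 ectoderm markers summed to 2525 TPM in KO ectoderm, 3130 in WT ectoderm, 27.5 in KO mesenchyme and 26.9 in WT mesenchyme. The 12 mesenchyme markers summed to 775 TPM in KO ectoderm, 381 in WT ectoderm, 2925 in KO mesenchyme and 4059 in WT mesenchyme. The median mesenchyme marker stood at 23.1% of its KO mesenchyme level in KO ectoderm, and at 4.05% of its WT mesenchyme level in WT ectoderm. Red blood cell markers summed to 5009 TPM in KO ectoderm, 4750 in WT ectoderm, 20591 in KO mesenchyme and 20223 in WT mesenchyme. Endothelial, muscle, neuron and macrophage lists were also read, and no marker of the 7 lists was at 0 in any group. The 10 neuron markers came to 145 TPM in KO ectoderm, 111 in WT ectoderm, 339 in KO mesenchyme and 217 in WT mesenchyme. The 10 muscle markers summed to 86.5, 31.3, 313 and 416 TPM in KO ectoderm, WT ectoderm, KO mesenchyme and WT mesenchyme, and the 10 macrophage markers to 40.0, 31.3, 69.5 and 74.7 TPM. The part of these cells in the results below was not tested. Libraries made with 2 index barcodes in place of 1 numbered 2 in KO ectoderm, 1 in WT ectoderm, 2 in KO mesenchyme and 0 in WT mesenchyme, and index type and group cannot be told apart from 1 value per group.

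The summed level of the glycolytic genes was higher in ectoderm than in mesenchyme, and single genes ran from very abundant to low. The 21 transporters and enzymes together reached 9671 TPM in KO ectoderm, 8799 in WT ectoderm, 7274 in KO mesenchyme and 7139 in WT mesenchyme. Gapdh, which oxidises glyceraldehyde 3-phosphate, had the highest level, at 2647 TPM in KO ectoderm, 2525 in WT ectoderm, 2695 in KO mesenchyme and 2464 in WT mesenchyme. It ranked between 33 and 40 among all genes of a group, while Hk1 ranked between 5762 and 8607, and its highest value was 1.09 times its lowest. Pkm (pyruvate kinase) followed at 1407, 1228, 920 and 969 TPM in KO ectoderm, WT ectoderm, KO mesenchyme and WT mesenchyme. Eno1 (enolase) came next at 1178, 1027, 850 and 811 TPM in the same groups. At the other end, Adm (the vessel-dilating peptide adrenomedullin) was at 0.66, 0.51, 1.77 and 0.59 TPM in KO ectoderm, WT ectoderm, KO mesenchyme and WT mesenchyme. The plot of levels shows that the spread over groups was widest for Slc2a3 and Epas1, whose highest values were 14.1 and 13.8 times their lowest.

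**Figure D1:**
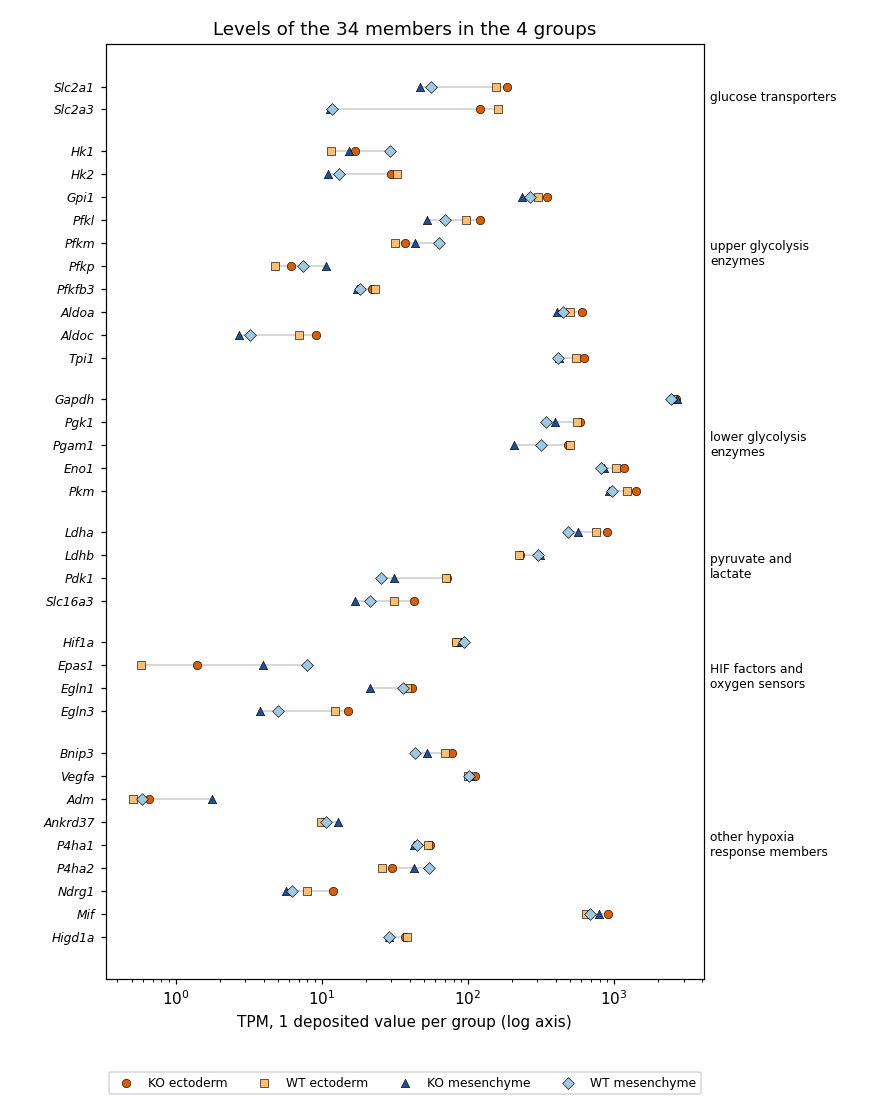
TPM of each of the 34 genes (log axis, 1 deposited value per group and gene) by role, with KO ectoderm as circles, WT ectoderm as squares, KO mesenchyme as triangles and WT mesenchyme as diamonds. Slc2a3, Slc2a1, Hk2, Pdk1 and Egln3 have both ectoderm values to the right of both mesenchyme values, while Gapdh, Vegfa and Hif1a stay close together.

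The first comparison asked how the layers of the WT face differ. Ectoderm had more RNA for glucose uptake, for Hk2 and for Pdk1, and mesenchyme had more for Hk1 and P4ha2. A ratio is given here as the log2 ratio of TPM plus 1, a gene entered where its mean over the pair of groups reached 1 TPM, and layers were counted as different at 2-fold or more. Of 33 members measured, 5 were higher in WT ectoderm and 3 lower. Of all 14242 genes, 6.89% were higher and 12.1% lower (19.0% in either direction). Epas1, 1 of the 3 lower, passed the filter through WT mesenchyme, the group where it is high. Its place in the count is therefore not a result. The median ratio was 0.31 for the members, and -0.15 for all genes. In bulk tissue, more cells of a type and more RNA per cell cannot be told apart.

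Both glucose transporters were far higher in ectoderm. Slc2a3 (GLUT3, a high-affinity transporter; chr6:122727809-122801640, minus strand, GRCm38) was at 122 TPM in KO ectoderm, 160 in WT ectoderm, 11.3 in KO mesenchyme and 11.7 in WT mesenchyme. In WT tissue this was a log2 ratio of 3.66 between ectoderm and mesenchyme, the largest of the members. Slc2a1 (GLUT1, the basal transporter of most cells; chr4:119108711-119137983, plus strand) was at 185 TPM in KO ectoderm, 156 in WT ectoderm, 47.3 in KO mesenchyme and 55.9 in WT mesenchyme, with a ratio of 1.47 in WT. Both genotypes therefore had ectoderm values above both mesenchyme values. Slc2a3 made up 39.8% of the summed TPM of the pair in KO ectoderm, 50.6% in WT ectoderm, 19.3% in KO mesenchyme and 17.3% in WT mesenchyme.

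The hexokinases were split between the layers. Hk2, the inducible hexokinase (chr6:82725025-82774454, minus strand), was at 29.8 TPM in KO ectoderm, 32.9 in WT ectoderm, 11 in KO mesenchyme and 13.1 in WT mesenchyme. Hk1, the hexokinase of most adult tissues (chr10:62268855-62379908, minus strand), was at 17.0 TPM in KO ectoderm, 11.6 in WT ectoderm, 15.5 in KO mesenchyme and 29.4 in WT mesenchyme. The WT layer ratios were 1.27 for Hk2 and -1.27 for Hk1. Hk2 formed 63.7% of the summed hexokinase TPM in KO ectoderm, 73.9% in WT ectoderm, 41.6% in KO mesenchyme and 30.8% in WT mesenchyme. Summed, the pair was at 46.8 TPM in KO ectoderm, 44.5 in WT ectoderm, 26.5 in KO mesenchyme and 42.4 in WT mesenchyme, so the WT layers were close in the sum and apart in its makeup.

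Further down the pathway, other isozymes also differed in their shares. Phosphofructokinase is encoded by a liver form (Pfkl), a muscle form (Pfkm) and a platelet form (Pfkp). Pfkl made up 73.5% of their sum in KO ectoderm, 72.6% in WT ectoderm, 49.2% in KO mesenchyme and 49.6% in WT mesenchyme. Pfkm was at 37.2 TPM in KO ectoderm, 32.0 in WT ectoderm, 43.5 in KO mesenchyme and 63.4 in WT mesenchyme, and its WT layer ratio of -0.96 was just inside 2-fold. Pfkp had the lowest levels, at 6.13, 4.79, 10.7 and 7.42 TPM in KO ectoderm, WT ectoderm, KO mesenchyme and WT mesenchyme. One Pfkp transcript shares 748 bases with Pitrm1 on the opposite strand, and whether the counting used strand is not given in the sources used here. Of the aldolases, Aldoa made up at least 98.5% of the pair in each group. Aldoc was at 9.10 TPM in KO ectoderm, 7.03 in WT ectoderm, 2.74 in KO mesenchyme and 3.22 in WT mesenchyme, higher in ectoderm at low levels, and its WT ratio of 0.93 passed 2-fold under 6 of 11 other settings.

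The enzymes from triose phosphate to pyruvate were higher in WT ectoderm by less than 2-fold. Tpi1 (triose phosphate isomerase) was at 624, 548, 424 and 413 TPM in KO ectoderm, WT ectoderm, KO mesenchyme and WT mesenchyme. Pgk1 (phosphoglycerate kinase, which makes ATP) was at 588, 559, 395 and 343 TPM in the same groups, and Pgam1 (phosphoglycerate mutase) at 487, 499.6, 209 and 318 TPM. All 5 enzymes from Gapdh to Pkm had WT ratios above 0, from 0.04 for Gapdh to 0.70 for Pgk1. The remaining upper enzymes, Gpi1 (glucose 6-phosphate isomerase), Pfkfb3 (maker of the phosphofructokinase activator fructose 2,6-bisphosphate) and Aldoa, had WT ratios of 0.19, 0.31 and 0.17.

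At the end of the pathway, Pdk1 was higher in ectoderm, and the lactate genes were within 2-fold between the layers. Pdk1, the kinase that switches pyruvate dehydrogenase off, was at 72.2 TPM in KO ectoderm, 71.3 in WT ectoderm, 31.2 in KO mesenchyme and 25.4 in WT mesenchyme, a WT ratio of 1.45. Pdk2, another kinase of the same enzyme and no member, was at 14.99 TPM in KO ectoderm, 12.2 in WT ectoderm, 10.7 in KO mesenchyme and 27 in WT mesenchyme, a WT ratio of -1.09. Ldha, the lactate dehydrogenase subunit of glycolytic tissue, was at 898 TPM in KO ectoderm, 757 in WT ectoderm, 569 in KO mesenchyme and 488 in WT mesenchyme. Ldhb, the subunit of oxidative tissue, went the other way, at 229 TPM in KO ectoderm, 225 in WT ectoderm, 310 in KO mesenchyme and 302 in WT mesenchyme. Ldhb was thus 20.3% of the pair in KO ectoderm, 22.9% in WT ectoderm, 35.2% in KO mesenchyme and 38.2% in WT mesenchyme. Slc16a3 (MCT4, a lactate exporter) was at 42.7, 31.1, 16.9 and 21.5 TPM in KO ectoderm, WT ectoderm, KO mesenchyme and WT mesenchyme. The WT ratios of Ldha, Ldhb and Slc16a3 were 0.63, -0.43 and 0.51, within 2-fold.

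**Figure D2:**
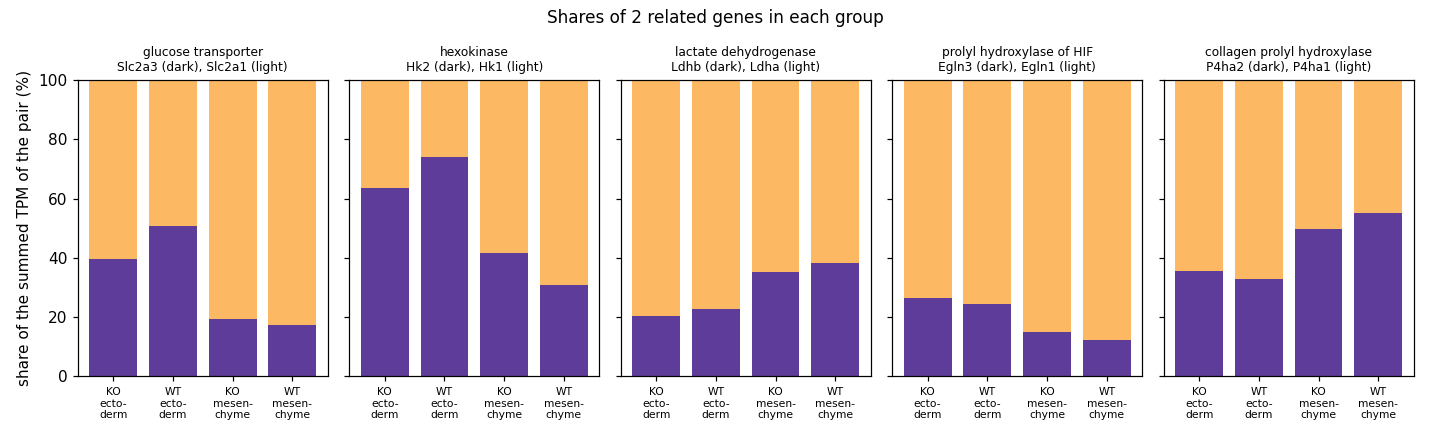
Share of each gene in the summed TPM of a pair of related genes (stacked bars from 0 to 100%, 1 deposited value per group) in KO ectoderm, WT ectoderm, KO mesenchyme and WT mesenchyme. Hk2 (dark) is 73.9% of the hexokinase pair in WT ectoderm and 30.8% in WT mesenchyme, and P4ha2 (dark) is 32.7% of its pair in WT ectoderm and 55.0% in WT mesenchyme.

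Among the genes of oxygen sensing, Hif1a was nearly even across groups, Egln3 differed between layers, and Epas1 was near the filter of 1 TPM in ectoderm. Hif1a (HIF-1 alpha) was at 83.2 TPM in KO ectoderm, 83.7 in WT ectoderm, 89.3 in KO mesenchyme and 94.8 in WT mesenchyme. Epas1 (chr17:86753700-86833410, plus strand), a HIF alpha gene known from blood vessel cells, was at 1.40 TPM in KO ectoderm, 0.58 in WT ectoderm, 3.97 in KO mesenchyme and 7.99 in WT mesenchyme. The WT layer ratio of Epas1 was -2.51. It entered that comparison through its mesenchyme level, so its place in the count is not a result. Of the endothelial markers, 10 of 10 were at least 2-fold lower in WT ectoderm than in WT mesenchyme. So were 12 of 12 mesenchyme, 9 of 9 muscle and 11 of 12 red blood cell markers. Neuron and macrophage lists had 6 of 10 and 6 of 9 lower (1 neuron marker was higher), and 12.1% of all genes were lower. Under 1 TPM in WT ectoderm were Kdr, Tek, Tie1, Emcn and Cldn5 (endothelial) and Myod1, Myf5, Tnnc2 and Des (muscle). So were Snap25, Nefl and Nefm (neuron) and Mrc1 (macrophage). All of these passed the filter through WT mesenchyme, the group where they are high, so their places in these counts are not a result. The endothelial sum was 56.1 TPM in KO ectoderm, 20.9 in WT ectoderm, 259 in KO mesenchyme and 352 in WT mesenchyme. No endothelial marker was at 0. The part of any of these cells in the Epas1 values was not tested.

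The HIF hydroxylases split as well. Egln3 (PHD3), itself a HIF target, was at 15.1 TPM in KO ectoderm, 12.3 in WT ectoderm, 3.76 in KO mesenchyme and 4.99 in WT mesenchyme, a WT ratio of 1.15 that was within 2-fold at a pseudocount of 5 TPM (0.79). Egln1 (PHD2), the main oxygen sensor, was at 41.8 TPM in KO ectoderm, 38.2 in WT ectoderm, 21.5 in KO mesenchyme and 36.1 in WT mesenchyme, so the WT layers were close and KO mesenchyme stood low.

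Of the other hypoxia response genes, P4ha2 alone was 2-fold apart between the WT layers. P4ha2, a prolyl hydroxylase that stabilises collagen, was at 30.5 TPM in KO ectoderm, 25.8 in WT ectoderm, 42.6 in KO mesenchyme and 54.6 in WT mesenchyme. The WT ratio of -1.05 was within 2-fold under 6 of 11 other settings, with values from -1.08 to -0.83. Its paralog P4ha1 was at 54.9, 53.2, 43.0 and 44.6 TPM in KO ectoderm, WT ectoderm, KO mesenchyme and WT mesenchyme, with the slightly higher values in ectoderm. Vegfa, the main growth factor of blood vessels, was level at 112, 101, 104 and 102 TPM in the same groups. Bnip3, a mitochondrial protein of mitophagy, was at 77.9, 70.1, 52.3 and 43.6 TPM, a WT ratio of 0.67. Ndrg1 (a stress-induced cytoplasmic protein) was at 12.0, 7.95, 5.67 and 6.23 TPM, Ankrd37 (an ankyrin repeat protein) at 10.6, 9.90, 12.9 and 10.7 TPM, and Higd1a (a mitochondrial protein) at 37.0, 38.3, 29.1 and 28.8 TPM in KO ectoderm, WT ectoderm, KO mesenchyme and WT mesenchyme. Mif, a cytokine, was at 912, 648, 796 and 684 TPM in that order of groups, with the WT layers close and both KO groups higher.

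HIF binds DNA at a short core, ACGTG or GCGTG, and the windows from 250 bases before to 50 after the annotated starts (RefSeq, GRCm38.p6) were searched for both on both strands. The table held 45 such windows for 31 members. ACGTG was found in 57.8% of the members' windows, in 24.5% of 13474 windows of genes measured in the WT layer comparison and in 19.6% of all 32851 windows. GCGTG was found in 57.8% of the members' windows, 49.6% of the windows of measured genes and 32.4% of all windows. Windows of the same gene can overlap, and the motifs can overlap each other. Either core was found in 82.2% of the members' windows, 60.8% of the windows of measured genes and 43.8% of all windows. By gene, 29 of 31 members had at least 1 core in a window, and Gpi1 and Tpi1 had none. A count by gene rises with the windows per gene, which were 45 for 31 members and 13474 for 10459 measured genes. The share by gene was not computed for other genes. Many members were listed as hypoxia response genes to begin with, and a match is not a binding site.

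Windows are printed 5′ to 3′ for 3 genes that were higher in ectoderm in both genotypes, with the cores of either strand in capitals. Also printed are the windows of Hk1, which was lower in ectoderm in WT only, and of Ldha, which had the most cores (7). They lie at chr4:119108495-119108794 (plus strand) for Slc2a1, chr6:82774405-82774704 (minus) for Hk2, chr12:54203825-54204124 (minus) for Egln3, chr10:62340372-62340671 (minus) for Hk1 and chr7:46845554-46845853 (plus) for Ldha. The Hk1 and Ldha windows belong to 1 of 2 annotated starts of each gene.
Slc2a1: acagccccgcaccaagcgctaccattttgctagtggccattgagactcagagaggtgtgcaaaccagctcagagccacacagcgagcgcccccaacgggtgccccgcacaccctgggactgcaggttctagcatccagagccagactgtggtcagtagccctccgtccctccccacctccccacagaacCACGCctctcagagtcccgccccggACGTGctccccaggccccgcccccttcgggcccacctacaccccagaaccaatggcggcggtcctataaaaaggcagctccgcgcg
Hk2: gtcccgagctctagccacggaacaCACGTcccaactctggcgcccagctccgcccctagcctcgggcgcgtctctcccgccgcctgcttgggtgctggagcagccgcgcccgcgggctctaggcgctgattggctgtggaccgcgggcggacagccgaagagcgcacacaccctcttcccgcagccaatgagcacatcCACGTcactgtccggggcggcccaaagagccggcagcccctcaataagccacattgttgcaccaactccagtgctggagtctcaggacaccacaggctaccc
Egln3: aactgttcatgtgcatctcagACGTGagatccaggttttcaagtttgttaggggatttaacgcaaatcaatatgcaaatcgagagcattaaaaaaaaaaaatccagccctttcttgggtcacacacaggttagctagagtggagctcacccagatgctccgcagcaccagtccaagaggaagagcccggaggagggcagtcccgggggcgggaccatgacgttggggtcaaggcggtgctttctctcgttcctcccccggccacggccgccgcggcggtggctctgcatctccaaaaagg
Hk1: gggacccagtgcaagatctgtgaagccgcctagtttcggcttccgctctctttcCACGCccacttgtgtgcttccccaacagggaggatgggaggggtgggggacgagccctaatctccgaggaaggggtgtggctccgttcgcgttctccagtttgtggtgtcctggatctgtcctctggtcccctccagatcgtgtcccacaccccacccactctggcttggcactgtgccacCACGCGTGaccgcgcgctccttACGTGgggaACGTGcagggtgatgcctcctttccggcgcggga
Ldha: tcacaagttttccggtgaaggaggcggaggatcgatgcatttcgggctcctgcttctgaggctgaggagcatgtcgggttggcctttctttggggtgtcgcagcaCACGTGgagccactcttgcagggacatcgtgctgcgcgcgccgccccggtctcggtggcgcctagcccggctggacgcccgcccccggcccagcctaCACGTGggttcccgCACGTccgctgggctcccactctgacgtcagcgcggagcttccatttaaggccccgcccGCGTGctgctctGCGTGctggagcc
Slc2a1 and Hk2 had 2 cores each and Egln3 had 1. The printed Hk1 window had 5, and the one at its other start (chr10:62379859-62380158) had 0, so the Hk1 count depends on the start taken. The other Ldha window had 2. A short stretch after the printed Slc2a1 start, and one after the printed Ldha start, was not found in GENCODE transcripts of the gene. The transcripts were searched line by line, so a match running over a line end would be missed.

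Between the KO layers, the same question was asked in the knockout, with other libraries. Of 34 members, 9 were at least 2-fold higher in KO ectoderm than in KO mesenchyme and 1 lower (Epas1, -1.05), where 9.06% of all 14411 genes were higher and 6.88% lower (15.9% in either direction). The median ratio was 0.56 for the members and 0.00 for all genes. Slc2a3 (3.32), Slc2a1 (1.94), Egln3 (1.76), Hk2 (1.36) and Pdk1 (1.18) were past 2-fold here as in WT. Aldoc (1.43), Slc16a3 (1.29), Pgam1 (1.22) and Pfkl (1.18) were past it in KO and had WT ratios of 0.93, 0.51, 0.65 and 0.48. The ratio of Hk1 was 0.13 in KO, against -1.27 in WT, and that of P4ha2 was -0.47, against -1.05. Such differences of 2-fold or more, KO ratio above WT ratio, were seen for 2 of 33 members (Hk1 and Epas1). Of all 14329 genes, 7.34% had one in this direction and 7.93% in either. Epas1, at 1.40 TPM in KO ectoderm and 0.58 in WT ectoderm, passed the filter through its mesenchyme levels. Its place in this count is therefore not a result. These differences between genotypes were not tested, having 1 value per group. After the trend with transcript GC content was subtracted, Pfkl and Slc16a3 were within 2-fold (0.89 and 0.91), as were Aldoc (0.87) and Epas1 (-0.49) at a pseudocount of 5 TPM.

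**Figure D3:**
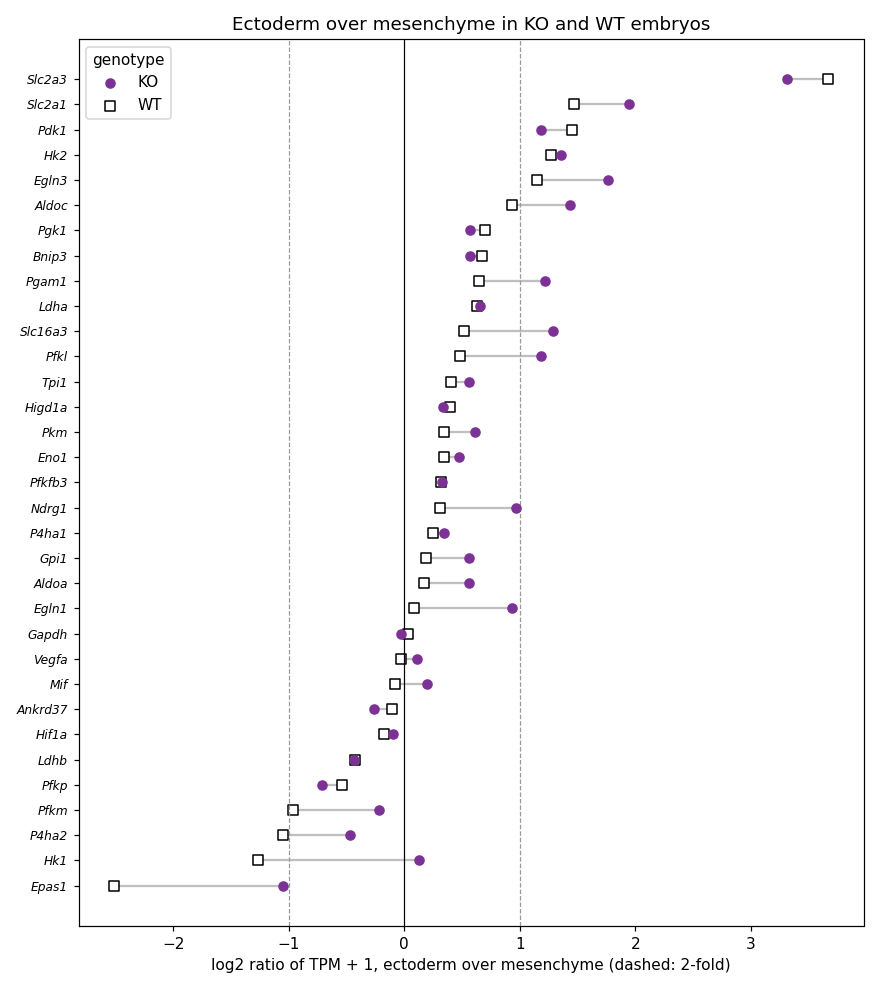
Log2 ratio of TPM plus 1, ectoderm over mesenchyme, of 33 genes in KO (filled circles) and WT (open squares) embryos, sorted by the WT ratio, with dashed lines at 2-fold. Hk1 lies at 0.13 in KO and -1.27 in WT, the widest gap except for Epas1, while Hk2 and Pfkfb3 lie nearly together.

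In ectoderm, every member measured was within 1.5-fold between KO and WT, the size used to count KO differences. Of 32 members measured, 0 were past it, where 5.38% of all 13935 genes were, most of them higher (4.93%). The members' ratios were small and mostly above 0: 26 of 32, or 81.3%, with a median of 0.19, against 64.2% and 0.05 for all genes. Ndrg1 had the highest ratio (0.54), followed by Hk1 (0.51), Mif (0.49) and Slc16a3 (0.45). Slc2a3 had the lowest, at -0.39, and the next lowest was Hk2 at -0.14. Slc2a1, the other glucose transporter, had a ratio of 0.24. With the columns rescaled, centred or quantile-normalized, 23 of the same 32 ratios were above 0.

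The medians of the pathway steps, KO over WT ectoderm, ran from -0.07 to 0.24. The 2 glucose transporters had the lowest, -0.07, with Slc2a3 at -0.39 and Slc2a1 at 0.24. Upper enzymes had a median of 0.24 (10 genes, from -0.14 for Hk2 to 0.51 for Hk1), lower enzymes 0.07 (5 genes), and the pyruvate and lactate group 0.14 (4 genes). Hypoxia and HIF members had a median of 0.15 over 11 genes, with Hif1a at -0.01, Egln1 at 0.12, Egln3 at 0.28 and Vegfa at 0.15. Epas1 and Adm were under the filter, at means below 1 TPM. The ectoderm columns also differed in mesenchyme markers, as given above. With the mesenchyme share subtracted from both, Ndrg1 (0.72), Slc16a3 (0.66) and Hk1 (0.64) were past 1.5-fold, the ratio of Slc2a3 was -0.10, and the members' median was 0.23. That subtraction takes the markers to be absent from ectoderm itself, which was not tested.

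In KO mesenchyme, Hk1, the oxygen sensor Egln1, the HIF gene Epas1 and Pgam1 were lower than in WT mesenchyme, while most glycolytic enzymes were close to it. Of 34 members, 4 were at least 1.5-fold lower and 1 higher, where 13.4% of all 14233 genes were lower and 2.35% higher (15.7% in either direction). The members' share of lower genes was thus near that of all genes. The median was -0.07 for the members, and -0.12 for all genes. Hk1 was lowest (-0.88), then Epas1 (-0.86), Egln1 (-0.72) and Pgam1 (-0.61). Pgam1 was within 1.5-fold after rescaling without mitochondrial and globin genes (-0.58), centring (-0.48) or quantile normalization (-0.54). Egln1 was within it after quantile normalization (-0.51), and Epas1 at a pseudocount of 5 TPM (-0.53). Adm was the higher gene (0.80), at 1.77 TPM in KO mesenchyme and 0.59 in WT mesenchyme, and was within 1.5-fold at a pseudocount of 5 TPM (0.28). It passed the filter through its KO mesenchyme level, the group where it is high, so its place in the count is not a result. Pgam1 was at 209 TPM in KO mesenchyme and 318 in WT mesenchyme, and its intronless copy Pgam1-ps2, which matches it over 765 bases at 100% identity, was at 13.8 TPM in KO mesenchyme and 39.8 in WT mesenchyme.

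The other members of KO mesenchyme lay within 1.5-fold on both sides of WT. Below 0 were Pfkm (-0.53), Pfkl (-0.40), P4ha2 (-0.35), Egln3 (-0.33), Slc16a3 (-0.33), Slc2a1 (-0.24) and Hk2 (-0.23). Above 0 were Pfkp (0.48), Pdk1 (0.29), Bnip3 (0.26), Ankrd37 (0.25), Ldha (0.22), Mif (0.22) and Pgk1 (0.20). Of all genes, 36.5% had ratios above 0. Upper enzymes had a median of -0.18 (8 of 10 below 0), lower enzymes 0.07, and the 4 HIF factors and sensors -0.53 (4 of 4 below 0, and 3 of 4 with centring or quantile normalization, where Hif1a was at 0.04 and 0.10). For the upper enzymes the count below 0 was 7 of 10 under those settings and 2 of 10 after the GC trend described next was subtracted. The endothelial list, whose sums stand beside Epas1 above, had 3 of 10 markers at least 1.5-fold lower in KO mesenchyme. The mesenchyme list had 6 of 12, the muscle list 4 of 10 and the red blood cell list 1 of 12. The neuron and macrophage lists had 0 of 10 each, where 13.4% of all genes were lower.

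**Figure D4:**
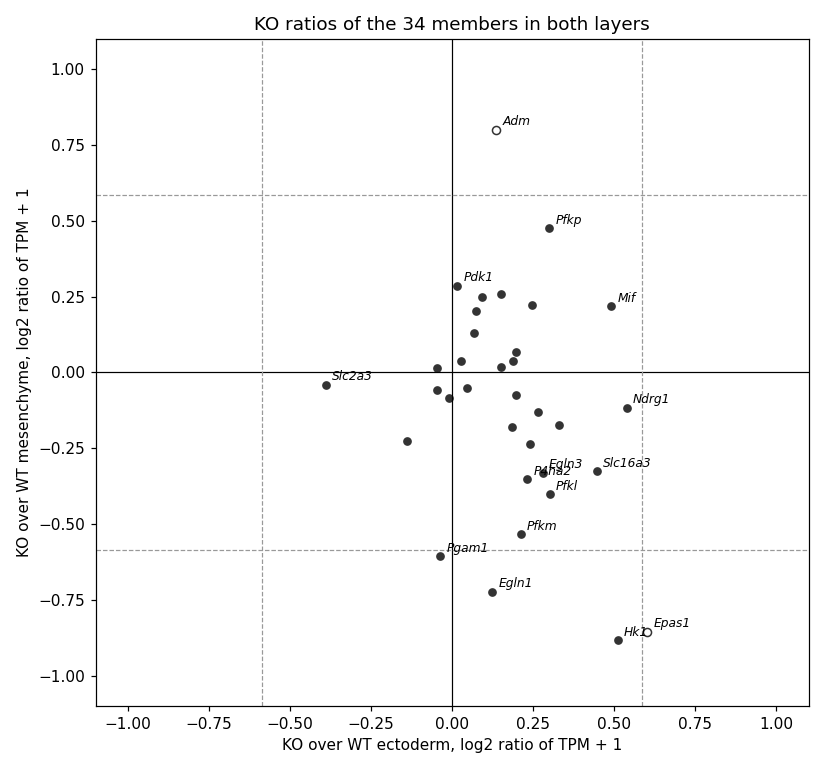
Log2 ratio of TPM plus 1, KO over WT, in ectoderm (x axis) and mesenchyme (y axis) for the 34 genes, with dashed lines at 1.5-fold. Open circles are Epas1 and Adm, which are under 1 TPM on average in ectoderm. Hk1 and Epas1 sit at the lower right, higher in KO ectoderm and lower in KO mesenchyme.

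KO mesenchyme ratios were lower for transcripts of higher GC content, and most members lay among these. Among all genes averaging 5 TPM or more, the median KO ratio in mesenchyme was 0.14 in the lowest of 4 equal groups by GC content, then -0.07, -0.27 and -0.49 in the highest. Of the members in this range, 2, 5, 15 and 9 lay in these groups, with median ratios of -0.04, 0.20, -0.07 and -0.18. In the 3 GC-richer groups the members' medians were therefore above those of all genes. After the trend was subtracted, the members' median in KO mesenchyme was 0.25 in place of -0.07. Past 1.5-fold were then Hk1 (-0.66) on the lower side, and Adm (1.16), Mif (0.81) and Pfkp (0.65) on the higher side. Egln1 (-0.30), Epas1 (-0.57) and Pgam1 (-0.27) were then within 1.5-fold. Hk1 was thus the 1 member lower in KO mesenchyme by 1.5-fold with and without the correction. In ectoderm the medians of all genes by GC group ran from -0.01 to 0.14, and those of the members from -0.03 to 0.24.

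**Figure D5:**
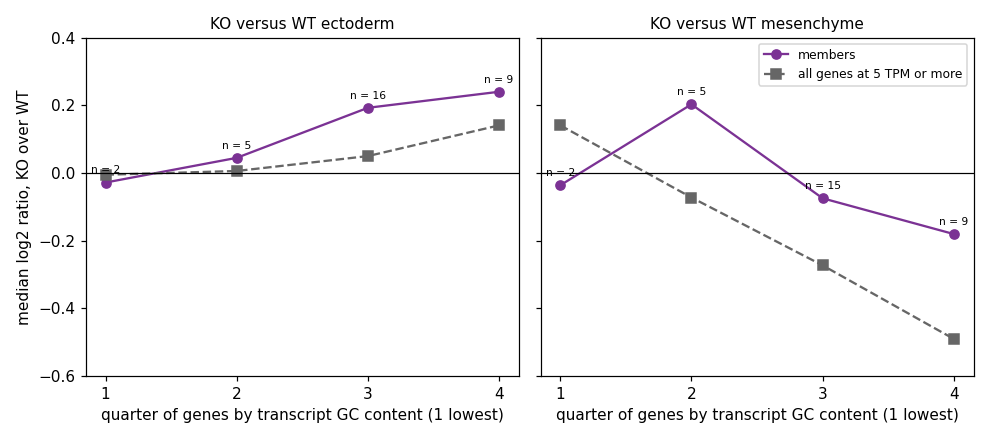
Median log2 ratio of KO over WT in 4 equal groups of genes ordered by transcript GC content, for the members (circles, number of genes beside each) and for all genes at 5 TPM or more (squares), in ectoderm (left) and mesenchyme (right). In mesenchyme the medians of all genes fall from 0.14 to -0.49, and those of the members lie above them in the 3 GC-richer groups.

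Genes of the same pathways outside the 34 were more often lower than higher in WT ectoderm, as were all genes (12.1% lower and 6.89% higher). Of 33 measured genes among 42 others of glycolysis and pyruvate handling, 1 was at least 2-fold higher in WT ectoderm and 7 lower, with a median ratio of -0.33. Eno2, the neuronal enolase, stood at 1.99 TPM in WT ectoderm and 10.3 in WT mesenchyme, and Slc2a4, the insulin-responsive transporter GLUT4, at 13.5 and 34.3 TPM. Slc2a10, another transporter of the family, stood at 1.21 TPM in WT ectoderm and 6.60 in WT mesenchyme. Pgm1 (phosphoglucomutase) stood at 12.0 TPM in WT ectoderm and 33.4 in WT mesenchyme. Mpc1, a subunit of the mitochondrial pyruvate carrier, was at 37.6 TPM in KO ectoderm and 78.3 in KO mesenchyme. The 8 pentose phosphate genes had no member past 2-fold between the WT layers and a median of -0.27.

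Other hypoxia response genes lay on both sides. Of 44 measured, 3 were at least 2-fold higher in WT ectoderm and 9 lower, with a median of -0.30. The lower ones with the largest ratios were the matrix enzymes Lox (1.1 TPM in WT ectoderm and 27.9 in WT mesenchyme) and Loxl2 (12.2 and 60.2 TPM), the VEGF receptor Flt1 (0.44 and 8.80 TPM) and Angptl4, a secreted regulator of lipoprotein lipase (5.82 and 34.3 TPM). Flt1 passed the filter through WT mesenchyme, the group where it is high, so its place in the count is not a result. Ak4, a mitochondrial adenylate kinase, had the highest WT layer ratio of this list (1.98). In the knockout it was at 29.0 TPM in ectoderm and 7.55 in mesenchyme, a ratio of 1.81.

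Among these other genes, the knockout differences were mostly in mesenchyme, as they were for all genes. Of all genes, 15.7% were past 1.5-fold in mesenchyme and 5.38% in ectoderm. Of the other glycolysis and pyruvate genes, 4 of 35 were at least 1.5-fold lower in KO mesenchyme and none higher. They were Pdk2, a second pyruvate dehydrogenase kinase (10.7 TPM in KO mesenchyme and 27 in WT mesenchyme), Pcx, pyruvate carboxylase (12.6 and 25.1 TPM), Pgam2, the muscle phosphoglycerate mutase (8.0 and 15.3 TPM), and the transporter Slc2a8 (6.66 and 12.3 TPM). Of the other hypoxia genes, 7 of 43 were lower and none higher, among them Zfp395 (11.9 TPM in KO mesenchyme and 25.4 in WT mesenchyme), the glycogen synthase Gys1 (20.5 and 39.3 TPM), Loxl2 (33.7 and 60.2 TPM) and Hif3a (10.8 and 19.6 TPM). One of 8 pentose phosphate genes, H6pd, was lower (4.52 TPM in KO mesenchyme and 9.58 in WT mesenchyme). These shares lay near the 13.4% of all genes that were lower. Values with the GC trend subtracted are not given for these other genes.

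In ectoderm, Lox (5.65 TPM in KO ectoderm and 1.1 in WT ectoderm), the transcription factor Bhlhe40 (8.04 and 4.27 TPM) and Hif3a (20.3 and 12.9 TPM) were at least 1.5-fold higher in the knockout, 3 of 43 other hypoxia genes, and none was lower. Of the other glycolysis and pyruvate genes 2 of 33 were higher and none lower. Both counts stand beside 4.93% of all genes higher and 0.452% lower. Taking the 10 HIF pathway genes as one list, members included, all 10 had ratios below 0 in KO mesenchyme, where 36.5% of all genes were above 0, though Hif1a (-0.09) and Vhl (-0.12) were no lower than the median of all genes, so their sign turns with centring. Lower by 1.5-fold, as were 13.4% of all genes, were Epas1, Egln1, Hif3a (-0.80) and Arnt2, a partner of HIF alpha. Arnt2 was at 29.6 TPM in KO mesenchyme and 49.2 in WT mesenchyme. Once the GC trend was subtracted, Epas1 (-0.57) and Egln1 (-0.30) were within 1.5-fold. Values after that step are not given for Hif3a and Arnt2. Arnt, the main partner, was at 41.8 TPM in KO ectoderm, 40.9 in WT ectoderm, 45.1 in KO mesenchyme and 50.9 in WT mesenchyme, and Vhl at 26.1, 21.8, 39.0 and 42.4 TPM.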

How the data were processed

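The authors deposited TPM in a single table whose columns are the 4 groups. Per the submitters' processing notes, the tools were STAR 2.5.2a and kallisto 0.43.0, with the mm10 build. The tool behind the TPM, the annotation and how 4 libraries became 1 value were not given in the sources used here. Columns sum to between 917993 and 977371 TPM. Read depth cannot be recovered from TPM, so no interval or detection floor is given.

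Of 30391 rows, 30286 symbols were distinct, and a repeated symbol was read from its most abundant row (0 members were affected). Ratios are log2 of TPM plus 1 where the mean over the pair of groups reached 1 TPM, which understates changes of low genes. Limma, planned for values per library, was not run. The members and lists were chosen with earlier results of these data known. Every member is named, and of the other lists up to 4 genes per comparison past the size with at least 5 TPM. Arnt and Vhl were added after their values were seen.

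GC content (median over a gene's transcripts) and positions came from GENCODE M21 on GRCm38 (mm10). The GC trend was fitted by lowess (statsmodels 0.14.6, fraction 0.3, genes at 5 TPM or more). Near-identical copies were sought with minimap2 2.31 (at least 95% identity over 300 bases or more). Ratios and the GC step were tested on simulated data. The estimate of the mesenchyme share was tested on a mixture built with the markers absent from WT ectoderm. That mixture could not test whether they are absent there, and the subtraction itself was not tested.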

Additional observations from a re-analysis of the deposited data

Results flagged for a closer look

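The KO ratio of Hk1 was above 0 in ectoderm (0.51) and below 0 in mesenchyme (-0.88), a difference of 1.39 on the log2 scale. Epas1 likewise had ratios of 0.60 in ectoderm, where its mean was under 1 TPM, and -0.86 in mesenchyme, a difference of 1.46. These were the members with opposite directions and a difference between the layers of at least 2-fold. Epas1 passed the filter here through its mesenchyme levels, so its place among them is not a result. A difference of that size, whatever the signs of the ratios, was seen for 7.93% of all 14329 genes. The difference rests on 1 value per group and was not tested. Of the endothelial markers, 10 of 10 were at least 1.5-fold higher in KO ectoderm and 3 of 10 lower in KO mesenchyme. Higher in KO ectoderm were also 10 of 12 mesenchyme, 7 of 8 muscle, 6 of 9 neuron and 3 of 8 macrophage markers. In WT ectoderm, the endothelial markers Kdr, Tek, Tie1, Emcn and Cldn5 lay under 1 TPM. So did the muscle markers Myod1, Tnnc2 and Des and the neuron marker Nefl. All of these passed the filter through KO ectoderm, the group where they are high. Their places in these counts are therefore not a result. In KO mesenchyme, 6 of 12 mesenchyme and 4 of 10 muscle markers were lower, and 0 of 10 neuron or macrophage markers. Red blood cell markers had 1 of 11 higher in KO ectoderm and 1 of 12 lower in KO mesenchyme. Of all genes, 4.93% were higher and 13.4% lower in these comparisons. The part of any of these cells in the Epas1 values was not tested.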

How the results depend on the processing

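No value per library exists in the table, so leaving out a library could not be done. No paired analysis was possible because the columns carry no replicate number. The other settings were pseudocounts of 0.1 and 5 TPM, no filter or one at 5 TPM, 2 rescalings of the columns, quantile normalization, centring on the median gene, subtraction of the GC trend, summing of repeated symbols, subtraction of the mesenchyme share and, chosen after seeing the data, adding near-identical copies. A median was taken as moved beyond 0.1 (log2) and a count beyond 1.5 times. The count of 0 members past 1.5-fold in KO ectoderm became 1 at a pseudocount of 0.1 TPM (Ndrg1), 1 without a filter, 1 after either rescaling (Epas1 in these 3) and 3 after subtraction of the mesenchyme share. In KO mesenchyme the count of 5 became 3 at a pseudocount of 5 TPM. The members' median there, -0.07, turned to 0.0114 with quantile normalization, to 0.0552 with centring and to 0.25 with the GC trend subtracted, so its sign depended on these settings. The split of higher against lower members, 1 and 4, was then 2 and 2, 2 and 3, and 3 and 1. Quantile normalization moved the median of all genes to 0.02, against -0.12, in KO mesenchyme and to 0.01, against -0.15, between the WT layers. The median for the WT layers, 0.31, was 0.46 with centring and 0.53 after the GC step, and that for the KO layers, 0.56, was 0.41 after the GC step. The causes were not tested. No member past the size changed sign under any setting run. Of 90 counts and medians recomputed, 78 kept their value within these limits.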

Other observations

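Gapdh has 39 pseudogene copies at 95% identity or more, of which 36 are in the table. Together they were listed at 319 TPM in KO ectoderm and 195 in WT ectoderm, and at 296 TPM in KO mesenchyme and 183 in WT mesenchyme. Copies Gm10359, Gm12671 and Gm7336 had identical values to each other, 73.0 TPM in KO ectoderm and 34.7 in WT ectoderm, and 65.9 TPM in KO mesenchyme and 33.6 in WT mesenchyme. In both layers these 3 copies were thus about 2-fold higher in the KO, while Gapdh itself had KO ratios of 0.07 in ectoderm and 0.13 in mesenchyme. With all copies added, the Gapdh ratios were 0.12 and 0.18. Reads of such copies cannot be told from those of the gene over the identical bases.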
